A study of Sus scrofa with 15 samples.

Results

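ADM (ENSSSCG00000013408) and EDN1 (ENSSSCG00000035598), the genes for the vasoactive peptides adrenomedullin and endothelin-1, were followed through RNA-seq of pig kidney cells overexpressing human PKD2. They are 2 of the 16660 genes in the deposited count table and 2 of the 11553 genes abundant enough to test. Both were chosen by their log2 fold changes against the empty-plasmid control, so their differences from that control are given as a description without a test. The cells were LLC-PK1, a pig renal proximal tubule epithelial line, transiently transfected with 3 µg of 1 of 5 plasmids. NC was the empty plasmid, with no PKD2 gene. WT carried wild-type human PKD2, Tg1 the D511V mutant, Tg2 the L656W mutant and Tg3 the R742X mutant, a truncated protein without the C-terminal tail or the FLAG epitope that the other constructs carry. PKD2 encodes polycystin-2, a cation channel mutated in autosomal dominant polycystic kidney disease, and its expression was driven by the CAG promoter, which is active in most cell types. RNA was taken 48 h after transfection from 3 wells per plasmid, which gave 15 libraries.

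Adrenomedullin is a secreted peptide that relaxes vascular smooth muscle. Its precursor is amidated by PAM, and the mature peptide acts on the receptor CALCRL joined to RAMP2 or RAMP3, which raises cAMP. Endothelin-1 is among the strongest known vasoconstrictors. Its precursor is cut by furin-type convertases and then by the endothelin-converting enzyme ECE1, and the peptide acts on the receptors EDNRA and EDNRB. Endothelial cells are a main source of both peptides, renal tubular epithelium also makes them, and both act on salt and water excretion in the kidney. Only transcripts were measured here, not the peptides.

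The libraries held between 20216200 and 26132196 counts, and ADM was covered by 1500 to 2790 counts and EDN1 by 583 to 1448 counts per library. Markers of renal epithelium were present: 20 of the 21 matched genes of that list passed the filter, among them AQP1 at 262 CPM (depth-scaled counts) and LRP2 at 260 CPM on average. Of 9 endothelial markers matched, KDR had 2 counts and CDH5 5 counts over all 15 libraries, and the summed level of the 9 was between 9.27 and 14.4 CPM, led by FLT1. WT replicate 2 stood apart from the other WT libraries: on the first principal component, which held 51.0% of the variance, it scored 6.84 whereas WT replicates 1 and 3 scored -15.5 and -25.2. Values against WT are therefore also given without it where it moved them.

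ADM was higher in every library of the PKD2 plasmids than in any NC library. Its level, as TMM-normalized CPM, was 66.0, 73.5 and 64.2 in NC. It was 87.4, 94.2 and 78.8 in WT, and 90.5, 88.6 and 84.4 in Tg3. These groups lay at almost the same height, with all 3 Tg3 libraries inside the range of WT. Tg1 had 86.0, 103 and 106 CPM, so its first replicate lay at the level of WT and Tg3 and its other replicates above every library of both. Tg2 had the highest level, 125, 112 and 99.3 CPM, although its replicate 3 was below replicates 2 and 3 of Tg1. The means were 67.9 ± 4.89 for NC, 86.8 ± 7.73 for WT, 98.2 ± 10.7 for Tg1, 112 ± 12.8 for Tg2 and 87.9 ± 3.14 for Tg3 (SD, n = 3 each). The log2 fold changes of ADM against NC were 0.35 for WT, 0.53 for Tg1, 0.72 for Tg2 and 0.37 for Tg3, each with a standard error of 0.093 or 0.094, and correspond to 1.28-, 1.45-, 1.65- and 1.29-fold higher levels. In bulk RNA, more cells expressing a gene and more transcript per cell cannot be told apart.

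EDN1 had the larger relative difference from NC in each plasmid. Its level was 25.7, 35.4 and 27.3 CPM in NC. In WT it was 45.1, 41.5 and 40.1 CPM, and in Tg3 it was 45.8, 45.5 and 40.2 CPM. All WT and Tg3 libraries lay above the 3 NC libraries and overlapped each other. Tg1 was the most scattered group, with 33.4, 47.2 and 53.3 CPM, and its first replicate fell below NC replicate 2, so that 8 of 9 pairs of Tg1 and NC libraries had the higher value in Tg1. Tg2 had 64.8, 66.3 and 49.6 CPM, all above NC, with replicate 3 again the lowest. The means were 29.5 ± 5.22 for NC, 42.2 ± 2.60 for WT, 44.6 ± 10.2 for Tg1, 60.2 ± 9.23 for Tg2 and 43.9 ± 3.15 for Tg3 (SD, n = 3 each). The log2 fold changes of EDN1 against NC were 0.52 for WT, 0.60 for Tg1, 1.03 for Tg2 and 0.57 for Tg3, each with a standard error of 0.16, or 1.43-, 1.51-, 2.04- and 1.49-fold.

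**Figure D1:**
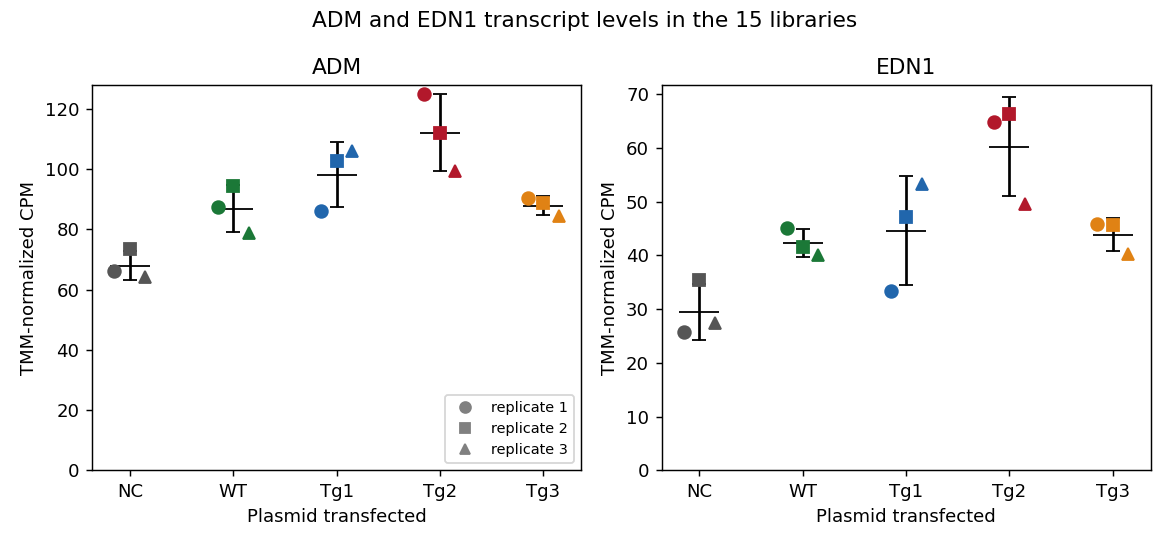
ADM (left) and EDN1 (right) in each library, in TMM-normalized CPM, by transfected plasmid. Symbols mark the replicate number, horizontal lines the mean and bars the SD of 3 libraries; both genes are lowest in NC and highest in Tg2, and for EDN1 1 Tg1 library reaches down into the NC range.

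Ordered by mean level, both genes ran from NC through WT, Tg3 and Tg1 to Tg2. WT and Tg3 overlapped for both genes, and for EDN1 the means of WT, Tg3 and Tg1 differed by less than the SD within Tg1. Tg1 and Tg2 also overlapped for both genes. Among all 11553 genes ranked by log2 fold change against NC, EDN1 was at place 19 for WT, 49 for Tg1, 57 for Tg2 and 92 for Tg3. ADM was at place 62 for WT, 68 for Tg1, 161 for Tg2 and 295 for Tg3. A gene was called at a Benjamini-Hochberg adjusted p-value of 0.05 or less from edgeR's quasi-likelihood test and a log2 fold change of at least 0.26 in size. In Tg2 against NC, 4.73% of the genes tested were called higher and 3.7% lower, with 4069 genes at an unadjusted p-value under 0.05. In Tg1 against NC these shares were 0.182% and 1.01%, with 2304 such genes. In WT and in Tg3 against NC they were 0% in both directions, with 524 genes in WT and 2089 in Tg3 at an unadjusted p-value under 0.05, and with 11 and 52 genes called by DESeq2.

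The ratio of EDN1 to ADM counts does not depend on the depth of a library. EDN1 had 38.9, 48.2 and 42.5 counts per 100 ADM counts in NC, and 51.9, 59.2 and 49.95 in Tg2. The 3 Tg2 libraries were above the 3 NC libraries. The ratio was 51.6, 44.0 and 50.9 in WT, 38.9, 46.0 and 50.3 in Tg1 and 50.6, 51.4 and 47.7 in Tg3, and in these 3 groups it overlapped with NC.

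Comparisons among the PKD2 plasmids ask whether the mutants differ from wild-type PKD2 at the same promoter. Their fold changes do not use the NC libraries, but the spread was estimated from all 15 libraries, and the libraries of the PKD2 plasmids also entered the comparisons on which the genes were chosen. ADM was higher in Tg2 than in WT, with no overlap between libraries, a log2 fold change of 0.37 (95% interval 0.17 to 0.57) and adjusted p = 0.0363 by edgeR's quasi-likelihood test. Of all genes tested, 5.92% were called in this comparison, and 21% without WT replicate 2. EDN1 was 0.51 higher on the log2 scale in Tg2 than in WT (95% interval 0.18 to 0.85), also without overlap, and just missed the threshold (edgeR, adjusted p = 0.0518), whereas DESeq2 called it (adjusted p = 0.0178). The exact permutation test, two-sided, gave p = 0.1 for both genes, the smallest value that 3 against 3 libraries allow. With only the Tg2 and WT libraries in the fit, ADM was 0.37 higher but not called (edgeR, adjusted p = 0.173), and the number of genes called over the whole table went from 684 to 0. Both results also changed with the loss of single libraries. ADM was no longer called without WT replicate 1 (log2 fold change 0.37, adjusted p = 0.113 from edgeR), WT replicate 3 (0.30, 0.170), Tg2 replicate 1 (0.28, 0.144) or Tg2 replicate 2 (0.37, 0.119). Without WT replicate 2, the library that stood apart, ADM was 0.43 higher in Tg2 (adjusted p = 0.00564 from edgeR) and EDN1 0.50 higher (adjusted p = 0.0422), so that EDN1 was then called, as it was without Tg2 replicate 3 (0.63, 0.0204).

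Tg1 and Tg3 were not distinguished from WT for either peptide gene. ADM differed from WT by 0.18 in Tg1 (95% interval -0.021 to 0.38, adjusted p = 0.369 from edgeR) and by 0.017 in Tg3 (-0.18 to 0.22, adjusted p = 0.930) on the log2 scale. EDN1 differed from WT by 0.080 in Tg1 (-0.26 to 0.42, adjusted p = 0.819 from edgeR) and by 0.054 in Tg3 (-0.28 to 0.39, adjusted p = 0.866). Without WT replicate 2 the differences were 0.24 and 0.080 for ADM and 0.068 and 0.041 for EDN1, and none was called. The value of ADM in Tg1 against WT lay between 0.11 (without WT replicate 3) and 0.26 (without Tg1 replicate 1) over the fits without 1 library, and that of EDN1 in Tg3 against WT between 0.018 (without WT replicate 3) and 0.11 (without Tg3 replicate 3). The other 2 values turned their sign in such fits, between -0.047 (without WT replicate 3) and 0.080 (without WT replicate 2) for ADM in Tg3 and between -0.066 (without Tg1 replicate 3) and 0.25 (without Tg1 replicate 1) for EDN1 in Tg1. The intervals leave room for differences in EDN1 as large as 0.42. Across all genes, 0.0692% were called in Tg1 against WT, where DESeq2 called 77 genes, and 0% in Tg3 against WT, where 2215 genes had an unadjusted p-value under 0.05 and DESeq2 called 116 genes. These shares were 7.39% in Tg1 and 11.4% in Tg3 without WT replicate 2. That was the only WT library with a positive score on the first principal component, as most mutant libraries had. Leaving it out therefore sets the remaining WT libraries farther from the mutants. Without any other single library of these groups, 0 genes were called in Tg1 against WT and 0 or 1 in Tg3 against WT.

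Among the mutants, Tg2 had the higher mean of both genes. Against Tg3, ADM was 0.35 higher in Tg2 (95% interval 0.15 to 0.55) and EDN1 0.46 higher (0.13 to 0.79), in both cases without overlap between libraries. Neither was called (edgeR, adjusted p = 0.822 for both) in a comparison in which 0% of the genes tested were called, 673 genes had an unadjusted p-value under 0.05 and DESeq2 called 0 genes. ADM had the 21st smallest p-value of the 11553 genes there, at an unadjusted p-value of 0.00202. Against Tg1, ADM was 0.19 higher in Tg2 (-0.0081 to 0.39, adjusted p = 0.268 from edgeR) and EDN1 0.43 higher (0.10 to 0.76, adjusted p = 0.161), with overlapping libraries, and 0.138% of all genes were called. These values were smaller without some libraries: ADM was 0.10 higher in Tg2 without either Tg1 replicate 1 or Tg2 replicate 1, and EDN1 was 0.26 higher without Tg1 replicate 1. Between Tg1 and Tg3, ADM differed by 0.16 (-0.038 to 0.36, adjusted p = 0.430 from edgeR) and EDN1 by 0.027 (-0.31 to 0.36, adjusted p = 0.961), in a comparison with 0.615% of genes called, and ADM lay between 0.10 (without Tg1 replicate 3) and 0.25 (without Tg1 replicate 1). EDN1 lay between -0.12 (without Tg1 replicate 3) and 0.20 (without Tg1 replicate 1) and so had no fixed sign.

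**Figure D2:**
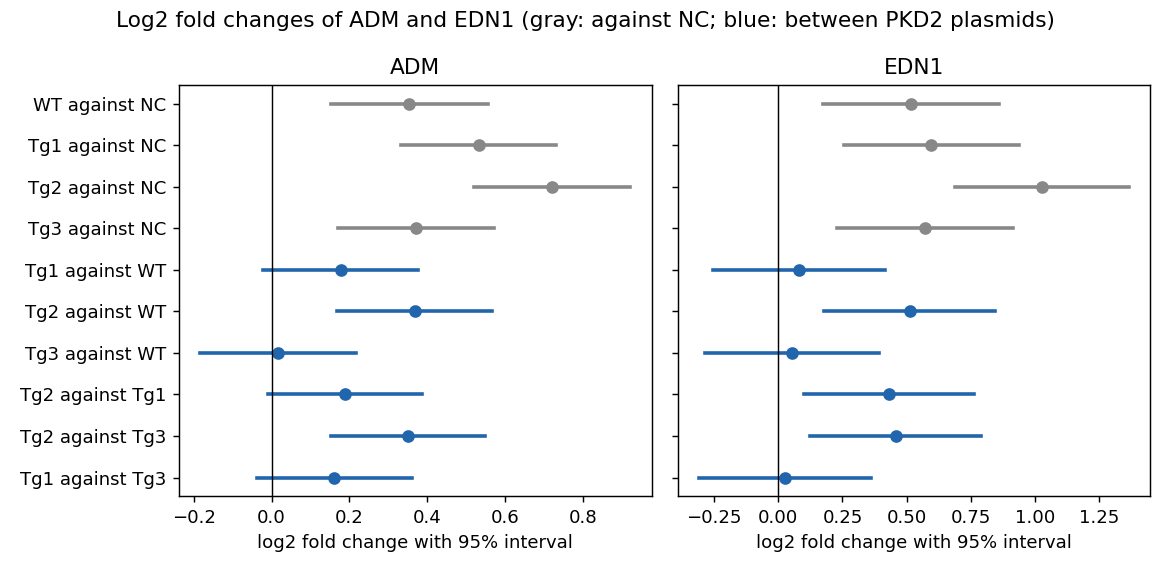
Log2 fold changes of ADM (left) and EDN1 (right) from the fit of all 15 libraries, with 95% intervals as bars, for 4 comparisons with NC (gray, description only) and 6 between PKD2 plasmids (blue). Between PKD2 plasmids, the intervals of Tg2 against WT and against Tg3 lie above 0 for both genes, and those of Tg1 and Tg3 against WT include 0.

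The wells of 1 plasmid differed in both genes in much the same way. The highest library within NC, Tg1 and Tg3 was the same for ADM and EDN1, and the lowest was the same in WT, Tg1, Tg2 and Tg3. Over the 15 libraries the log2 levels of ADM and EDN1 had a Pearson correlation of 0.94 and a Spearman correlation of 0.95, and 0.91 (Pearson) without Tg2 replicate 1 and NC replicate 3, the libraries farthest from the median of ADM. With the mean of each plasmid subtracted the Pearson correlation was 0.83, and 0.70 without Tg1 replicate 1 and Tg2 replicate 3. Of 11552 genes, 984 then had a correlation above 0.8 with ADM and 80 with EDN1, so a value of this size with ADM was not particular to EDN1. These correlations are descriptions of libraries that share wells, plasmids and normalization. The correlation of levels was also partly set by the choice of both genes on their log2 fold changes against NC. Both genes also moved with the first principal component, with correlations of 0.77 for ADM and 0.72 for EDN1 over 15 libraries.

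**Figure D3:**
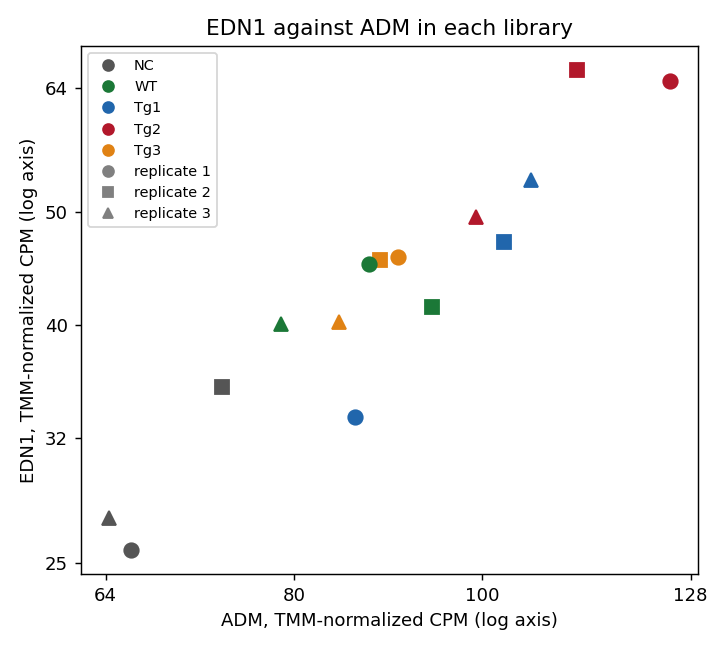
EDN1 against ADM in each library, both in TMM-normalized CPM on log axes, with colors for plasmids and symbols for replicate numbers. The 3 NC libraries lie at the lower left and Tg2 replicates 1 and 2 at the upper right, while WT and Tg3 lie close together in the middle.

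Of the other genes of adrenomedullin signalling, the amidating enzyme and the scavenger receptor were higher in Tg2 than in NC, and transcripts of the receptor itself were almost undetected. Of 13 genes listed besides ADM, 8 were matched and 4 tested, of which 2 were called higher and 0 lower in Tg2 against NC, beside 4.73% and 3.7% of all genes, with a median log2 fold change of 0.29 beside -0.0066 for all genes. PAM, which amidates the peptide, had 134, 139 and 123 CPM in NC and 192, 185 and 149.9 CPM in Tg2. Its log2 fold change was 0.41 (SE 0.10, adjusted p = 0.0238 from edgeR), and it was also called in Tg2 against WT (0.39, adjusted p = 0.0377), with 0.48 without WT replicate 2, but not without WT replicate 1 or 3 or Tg2 replicate 1 or 2. ACKR3, an atypical receptor that removes adrenomedullin and chemokine ligands, went from 40.7, 37.8 and 41.1 CPM in NC to 45.2, 48.6 and 50.2 CPM in Tg2, a log2 fold change of 0.27 (SE 0.070, adjusted p = 0.0252 from edgeR). CALCR, the calcitonin receptor, had a log2 fold change of 0.31 (adjusted p = 0.239 from edgeR) and RAMP1, its partner in an amylin receptor, of -0.099 (adjusted p = 0.522). CALCRL had 7 counts in all and was at 0 in 11 of 15 libraries. RAMP2 had 49 counts, RAMP3 185 and the orphan receptor GPR182 286 counts in all, each below the filter. No gene of this list was called in WT, Tg1 or Tg3 against NC, where 1, 0 and 1 of the 4 had an unadjusted p-value under 0.05. The calls of PAM and ACKR3 were sensitive to single libraries: 0 of the 2 remained without NC replicate 1, NC replicate 3, Tg2 replicate 1 or Tg2 replicate 2, and 1 without NC replicate 2 or Tg2 replicate 3.

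Convertases of endothelin-1 and the receptor EDNRB were above the filter on low counts, whereas EDNRA was below it. Of 12 genes listed besides EDN1, 6 were matched and 4 tested, and edgeR and DESeq2 called 0 of them in Tg2 against NC, beside 4.73% of all genes called higher and 3.7% lower by edgeR, with 2 at an unadjusted p-value under 0.05. ECE1, the converting enzyme, ranged from 70.0 to 86.3 CPM over the libraries, with a log2 fold change of -0.068 in Tg2 (SE 0.066, adjusted p = 0.484 from edgeR). FURIN had a log2 fold change of -0.13 (adjusted p = 0.147 from edgeR) and PCSK7, another proprotein convertase, of 0.11 (adjusted p = 0.0730). EDNRB, the receptor that promotes sodium excretion in the collecting duct and clears the peptide, had 9.33, 9.06 and 10.3 CPM in NC and 12.5, 10.7 and 11.8 CPM in Tg2. The 3 Tg2 libraries were above the NC libraries, with a log2 fold change of 0.29 (SE 0.11; edgeR, adjusted p = 0.0808). EDNRA, the receptor known for vasoconstriction, was below the filter with 382 counts in all, at 0.97, 0.99 and 0.58 CPM in NC and 1.52, 1.77 and 1.08 CPM in Tg2. The endopeptidase MME, which degrades vasoactive peptides, was also below the filter with 23 counts in all, at 0.088, 0.19 and 0.19 CPM in NC and at 0 in the 3 Tg2 libraries, and it was called lower when no filter was applied (edgeR, adjusted p = 0.0368). In WT, Tg1 and Tg3 against NC, 0 of the 4 genes tested had an unadjusted p-value under 0.05.

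Among other vasoactive systems, the genes called in Tg2 against NC were 2 that bear on nitric oxide. Of 8 tested genes for angiotensin, natriuretic peptides and related systems, such as AGT and NPR1, edgeR and DESeq2 called 0 in Tg2 against NC. Their median log2 fold change was -0.072, with 3 of them at an unadjusted p-value under 0.05, beside 4069 of all 11553 genes. Of 18 genes of nitric oxide and prostanoid synthesis, 2 were called lower and 0 higher, beside 3.7% and 4.73% of all genes, with 12 above and 6 below 0 and a median log2 fold change of 0.033. Both encode enzymes that break down asymmetric dimethylarginine, an endogenous inhibitor of nitric oxide synthase. DDAH1 fell from 340, 313 and 351 CPM in NC to 225, 226 and 288 CPM in Tg2, a log2 fold change of -0.44 (SE 0.10, adjusted p = 0.0219 from edgeR). DDAH2 fell from 14.5, 14.9 and 16.0 CPM to 10.6, 10.6 and 11.5 CPM, a log2 fold change of -0.48 (SE 0.14, adjusted p = 0.0387 from edgeR). Both were also called lower in Tg2 against WT, with log2 fold changes of -0.40 and -0.47, and of -0.48 and -0.64 without WT replicate 2, but neither was called there without WT replicate 1 or 3 or Tg2 replicate 1 or 2. Without WT replicate 2 both were called lower in Tg3 against WT too. The log2 fold changes there were -0.33 and -0.52 (edgeR, adjusted p = 0.0404 and 0.0171). In the fits without this library, 21% of all genes were called in Tg2 and 11.4% in Tg3 against WT. With all libraries, 0 genes of the nitric oxide list were called in Tg3 against WT. The 2 calls against NC became 0 without NC replicate 1, NC replicate 3, Tg2 replicate 1 or Tg2 replicate 2, and without Tg2 replicate 3 the nitric oxide list had 5 calls and the other vasoactive systems 2, in a fit with 16.3% of all genes called.

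Several signalling pathways are known to act on the ADM or EDN1 genes, and their other genes were read beside them in the same libraries. The lists were chosen with earlier results of these data known, so their counts are a description. In Tg2 against NC, 9 of 28 tested genes of the hypoxia-inducible factor (HIF) pathway were called higher and 0 lower, with a median log2 fold change of 0.18. Here and for the lists that follow, 4.73% of all genes tested were called higher and 3.7% lower in this comparison, with a median of -0.0066. PLOD1, which hydroxylates collagen lysines, was at 108, 112 and 108 CPM in NC and at 143, 139 and 133 CPM in Tg2, a log2 fold change of 0.34 (adjusted p = 0.00865 from edgeR). The glycolytic genes HK2, ENO1 and PFKFB3 rose by 0.67, 0.28 and 0.41. Of 10 AP-1 subunits, the dimeric factors that act at the EDN1 promoter, 3 were called higher and 0 lower, with a median of 0.098. The median of this list was larger in WT against NC, 0.27, with 7 of 10 genes at an unadjusted p-value under 0.05 but 0 called. Without WT replicate 2 it was 0.42 there, with 2 genes called higher beside 0.216% of all genes called. In Tg1, Tg2 and Tg3 against WT the median was -0.11, -0.15 and -0.30, with 8, 7 and 8 of 10 genes lower. Of these, FOSL2, named after its values were seen, was called lower in Tg2. Without WT replicate 2 the medians were -0.21, -0.22 and -0.40, with 2, 4 and 6 genes called lower and 1, 0 and 1 higher, beside 7.39%, 21% and 11.4% of all genes called, and FOSL2 was called lower in all 3. JUNB was at 122, 113 and 130 CPM in NC and at 165, 179 and 178 CPM in Tg2, a log2 fold change of 0.52 (adjusted p = 0.00877 from edgeR), and FOSL1 and MAFF rose by 0.71 and 0.67.

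Genes that restrain or follow ERK signalling and targets of NF-kB, the inflammatory transcription factor, had more members called. Of 27 ERK feedback and growth-factor response genes, 12 were called higher and 0 lower in Tg2 against NC, with a median log2 fold change of 0.40. MYC, the proto-oncogene, was at 218, 235 and 223 CPM in NC and at 318, 340.4 and 310.3 CPM in Tg2, a log2 fold change of 0.52 (adjusted p = 0.00865 from edgeR). IER3, DUSP6, the phosphatase that inactivates ERK, and IER2 rose by 0.64, 0.65 and 0.47. Of 22 NF-kB and cytokine response genes, 13 were called higher and 0 lower, with a median of 0.41. They included ZC3H12A, an RNase that restrains cytokine transcripts, which rose by 0.43, the chemokines CXCL8 and CXCL2, which rose by 0.66 and 0.65, and the inhibitor NFKBIE, which rose by 0.47. Of 17 YAP-TEAD targets 3 were called higher, namely ANKRD1 (0.47), AMOTL2 (0.29) and AXL (0.79), with a median of 0.0049 for the list. Of 19 cAMP-CREB response genes 2 were called higher, DUSP1 (0.41) and PDE4A (0.61), with a median of 0.020, and 0 of either list were called lower. In WT, Tg1 and Tg3 against NC the ERK list had medians of 0.23, 0.25 and 0.22, with 22, 23 and 25 of 27 genes above 0. The NF-kB list had medians of 0.038, 0.26 and 0.24 there, with 15, 22 and 22 of 22 genes above 0. The medians of all genes were -0.0036, 0.0034 and -0.0018. There edgeR called 0, 3 and 0 genes of the ERK list and 0, 1 and 0 of the NF-kB list.

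**Figure D4:**
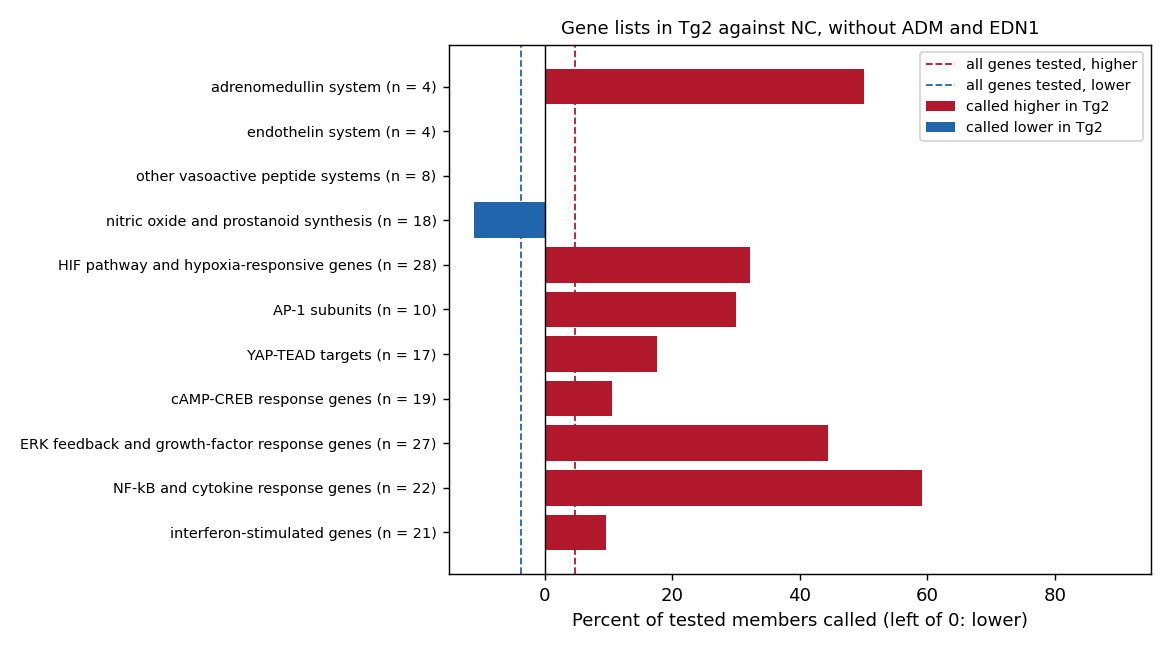
Percent of the tested members of each gene list that were called higher (red) or lower (blue, left of 0) in Tg2 against NC, with the number tested in brackets and the share of all genes tested as dashed lines at 4.73% and 3.7%. ADM and EDN1 are left out of the counts. The NF-kB, adrenomedullin and ERK lists have the largest shares called higher, the adrenomedullin list from 4 genes. The lists were chosen with earlier results of these data known.

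Most of these calls against NC were in Tg2, and their number changed with single libraries. Of the 176 genes tested over all lists, 47 were called in Tg2 against NC, or 26.7% beside 8.43% of all genes, and 8 in Tg1 against NC, or 4.55% beside 1.19%. The lists were chosen with earlier results of these data known, and they hold MYC and IER3, which the authors had reported as higher. A larger share than over all genes, here and below, is therefore partly set by that choice and is no test of the lists. In WT and in Tg3 against NC edgeR called 0 of them and DESeq2 9 and 6. The DESeq2 shares were 5.11% beside 0.0952% of all genes in WT and 3.41% beside 0.45% in Tg3. Without WT replicate 2, edgeR called 12 in WT against NC, all higher, beside 0.216% of all genes. The 8 genes in Tg1 were JUNB, MYC, IER2, IER3 and ZC3H12A, which rose, and TEAD1 (log2 fold change -0.47), PTPN14 (-0.43) and PRKAR2A (-0.36), which fell and were named after their values were seen. The count of 47 became 0 without NC replicate 3 or Tg2 replicate 2, and over all genes the 974 calls in Tg2 against NC became 0 without either library, 24 without NC replicate 1, 48 without Tg2 replicate 1 and 1880 without Tg2 replicate 3. The count of 8 in Tg1 became 2 without NC replicate 1 or 3, 5 without NC replicate 2, 1 without Tg1 replicate 2 and 3 without Tg1 replicate 3. In Tg2 against WT 21 genes of the lists were called, or 11.9% beside 5.92% of all genes, 10 of them in the NF-kB list. These counts became 85 and 17 without WT replicate 2 (with 21% of all genes called) and 64 and 17 without Tg2 replicate 3 (16.3%). Both became 0 without WT replicate 1 or 3 or Tg2 replicate 1 or 2. In Tg1 and Tg3 against WT 1 and 0 genes of the lists were called. Without WT replicate 2, 38 were called higher and 16 lower in Tg1 against WT, or 30.7% beside 7.39% of all genes. In Tg3 against WT 43 were then called higher and 29 lower, or 40.9% beside 11.4% of all genes. Without any other single library of these groups, 0 genes of the lists were called in either comparison.

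Interferon-stimulated genes also varied among the libraries. The summed level of the 21 genes tested, led by RSAD2, was 18747, 25162 and 16378 CPM in NC, 16929, 30025 and 12437 CPM in WT and 38325, 34571 and 25987 CPM in Tg2. It was 20654, 28040.3 and 29087 CPM in Tg1 and 26667, 32256 and 24288 CPM in Tg3. All 21 genes had a positive log2 fold change in Tg2 against NC, with a median of 0.66, 19 at an unadjusted p-value under 0.05 and 2 called, the regulator IRF7 (0.78, adjusted p = 0.0377 from edgeR) and the antiviral protein BST2 (0.94, adjusted p = 0.0451). All 21 were also positive in Tg1 and in Tg3 against NC, with medians of 0.35 and 0.43 and 0 called. In WT against NC 6 of the 21 were positive, with a median of -0.024. Within WT, Tg1, Tg2 and Tg3 the lowest summed level was in the well that was lowest for both ADM and EDN1, and within NC the highest was in the well that was highest for both. The part of this variation in the levels of ADM and EDN1 was not tested.

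The genes whose levels were most like ADM were in part those most like EDN1. Likeness was the Pearson correlation of log2 CPM over the 15 libraries, a description of points that share wells and plasmids. Both peptide genes were chosen by their log2 fold changes against NC, so the likeness of their levels to each other was partly set by that choice. ADM was most like DUSP6 (0.96), ANKRD1 (0.95), ERRFI1 (0.95), ZFP36 (0.94), AP1G2 (0.94), EDN1 (0.94), EZR (0.94), ZFP36L1 (0.93), MCL1 (0.93) and TBC1D10A (0.93). EDN1 was most like ERRFI1 (0.97), ANKRD1 (0.96), MYC (0.96), CXCL2 (0.95), FOSL1 (0.95), ADM (0.94), MCL1 (0.93), DUSP6 (0.93), SOX9 (0.93) and MIDN (0.92). Each peptide gene was thus in 6th place for the other among 10133 genes with a symbol, and 4 genes were among the first 10 of both. These were ANKRD1, a cardiac ankyrin repeat protein, DUSP6, ERRFI1, a feedback inhibitor of the EGF receptor, and MCL1, an anti-apoptotic BCL2 relative. ERRFI1 had a mean of 60.7 ± 7.32 CPM in NC and 82.1 ± 6.94 CPM in Tg2, and SOX9, a transcription factor of kidney development and repair, 41.6 ± 3.50 and 68.5 ± 12.2 CPM (SD, n = 3 each). ZFP36 and ZFP36L1, which bind AU-rich elements and speed up the decay of transcripts, had means of 469 ± 32.3 and 303 ± 38.4 CPM in NC and 684 ± 51.9 and 446 ± 66.7 CPM in Tg2. Correlations above 0.9 were found for 29 genes with ADM and for 17 with EDN1, out of 11552.

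**Figure D5:**
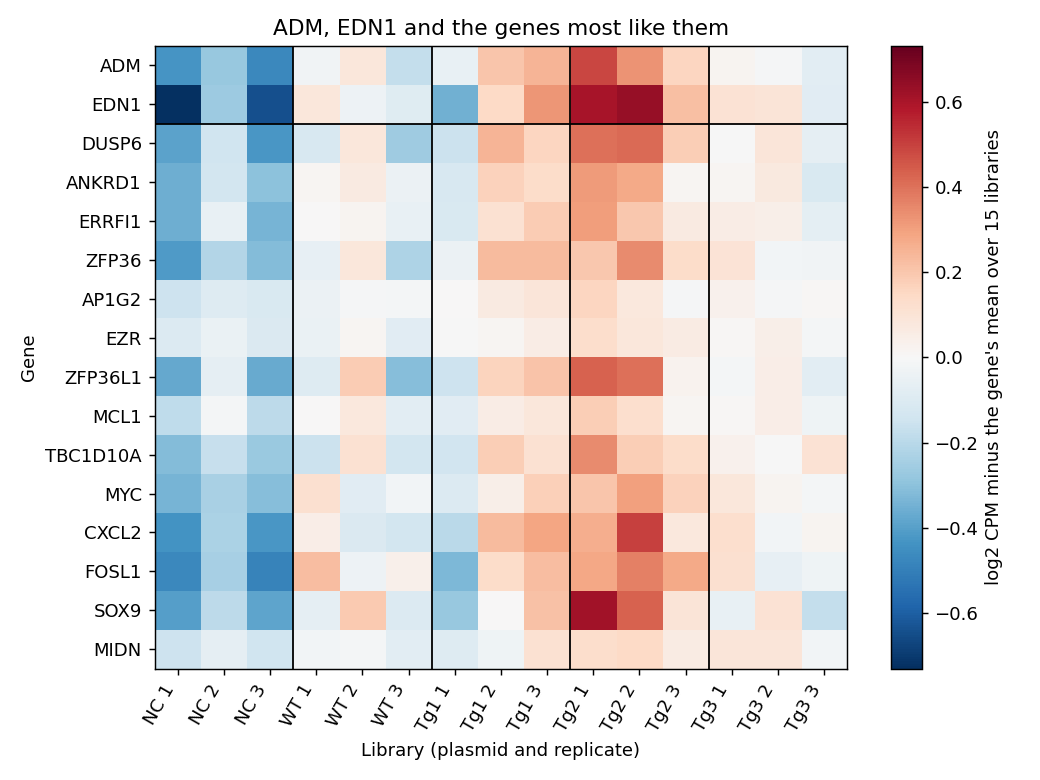
Log2 CPM of ADM, EDN1 and the genes most like them in each library, each gene centered on its mean over the 15 libraries (color scale, log2 units), with lines between plasmids. The NC libraries are low and Tg2 replicates 1 and 2 high in most rows, and the size of the differences is larger for EDN1 than for genes such as EZR or MIDN.

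With the plasmid means subtracted, the first 5 for ADM held MCL1 and those for EDN1 held ERRFI1, ANKRD1 and CXCL2. These had been among the first 10 by levels, and the other genes of the first 5 had not. MCL1 had been at place 9 for ADM by levels. ADM was then most like MYLK (0.95), the myosin light chain kinase, MCL1 (0.95), ECPAS (0.95), SMARCA5 (0.95) and GIPC2 (0.95). EDN1 was most like ERRFI1 (0.94), the RNA helicase gene DDX3X (0.92), ANKRD1 (0.92) and CXCL2 (0.90), among others. ADM was then in 34th place for EDN1 and EDN1 in 627th place for ADM. The first 5 were not stable: without WT replicate 2, 0 of the 5 stayed among the first 5 for either gene, and without Tg2 replicate 3, 0 stayed for ADM and 2 for EDN1. Over all 15 libraries left out in turn, 0 to 4 stayed for ADM and 0 to 5 for EDN1, whereas at least 6 of the first 10 by levels stayed without any 1 library.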

How the data were processed

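RNA-seq of 15 libraries, 3 wells for each of 5 plasmids, was analysed. The authors ran Salmon on the pig cDNA sequences of Ensembl release 98, and the deposited values are raw whole-number counts of each gene. How transcripts were joined into genes is not given in the sources used here. All 15 columns were mapped to samples by their labels. The titles of WT and Tg3 share a genotype number, and WT was identified from the name in brackets, the description and the plasmid label. Gene symbols came from a table of Ensembl identifiers, which matched 13373 of the 16660 genes and 10134 of those tested. Reads of related transcripts, such as those of CXCL2 and other chemokines, may be shared between genes. Genes with a mean of 2 CPM or more (11553, 99.8% of counts) were fitted in edgeR 4.0.16 (R 4.3.3) with TMM normalization and glmQLFit, all plasmids in one model of group means, and tested with glmQLFTest and Benjamini-Hochberg adjustment over all genes tested. Standard errors were taken from the log2 fold change and its F statistic. For likeness, log2 CPM had a prior count of 2. No p-value was computed for ADM and EDN1 against NC.

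The members and gene lists were chosen with earlier results of these data known. Named are ADM and EDN1, the 10 genes most like each by levels and the 5 by deviations from plasmid means, up to 4 called members per list with the smallest p-values in Tg2 against NC, and the measured members of both peptide systems. Some genes that this rule names are not reported here. Wells are not stated to be separate cultures or transfection days, so p-values measure the spread between wells. Counts of same-plasmid wells differed beyond counting noise in every pair (chi-square per degree of freedom 2.78 to 42.1). Alternatives were DESeq2 1.42.0, its size factors, no filter, only the plasmids compared, the replicate number as a block, leaving out each library and, for likeness, Spearman's correlation and a prior count of 0.5. The fits were tested on simulated data. Neither the PKD2 transgene nor the pig PKD1 and PKD2 genes were analysed here.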

Additional observations from a re-analysis of the deposited data

How the results depend on the processing

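The log2 fold changes of ADM and EDN1 against NC kept their sign in all 88 alternatives. Both genes were chosen on these comparisons, and the alternatives reuse the same libraries, so a kept sign was likely beforehand and is no independent support. Between PKD2 plasmids the direction and the side of the threshold stayed in 117 alternatives, and 9 in Tg2 against WT changed the side. In 6 fits without a single library a small difference that was not called turned its sign: over the fits without single libraries ADM lay between -0.047 (without WT replicate 3) and 0.080 in Tg3 against WT, EDN1 between -0.066 (without Tg1 replicate 3) and 0.25 in Tg1 against WT, and EDN1 between -0.12 (without Tg1 replicate 3) and 0.20 in Tg1 against Tg3. In Tg2 against WT, ADM was 0.37 and not called with only the 2 plasmids in the fit (adjusted p = 0.173 from edgeR), and lay between 0.28 and 0.45 without single libraries, where it was called in 2 of 6 fits. EDN1 there was 0.51 and called by DESeq2 (adjusted p = 0.0178), and lay between 0.44 and 0.63 without single libraries. The adjusted p-values over all alternatives were 0.00564 to 0.173 for ADM and 0.0178 to 0.199 for EDN1. Fits without a library assume that the remaining wells vary like those of the other plasmids. The wells were not taken as paired by replicate number, since the labels state no pairing and 20 of 30 same-numbered pairs of libraries, not all, had a correlation of deviations over 0.1 (range -0.36 to 0.55). The mean was 0.14 for same-numbered and -0.071 for other pairs, all pairs of replicates 2 were between 0.10 and 0.54, and 8 of 15 libraries correlated best with their own number. With the replicate block EDN1 in Tg2 against WT was 0.51 (adjusted p = 0.0265 from edgeR) and the genes called rose from 974 to 1624 in Tg2 against NC, 138 to 246 in Tg1 against NC and 684 to 1578 in Tg2 against WT.

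The number of genes called moved by over 1.5 times in further alternatives, for which the cause was not tested. DESeq2 called 11 genes in WT, 244 in Tg1 and 52 in Tg3 against NC, 77, 1184 and 116 in Tg1, Tg2 and Tg3 against WT, 162 in Tg2 against Tg1 and 139 in Tg1 against Tg3, where edgeR called 0, 138, 0, 8, 684, 0, 16 and 71. With only the 2 plasmids in the fit, which leaves fewer libraries for the spread, edgeR called 0 genes in Tg1 and Tg2 against WT and in Tg2 against Tg1 and 32 in Tg1 against Tg3, and with no filter 2 in Tg1 against WT and 7 in Tg2 against Tg1. The block gave 11 calls in Tg3 against NC, 66 and 111 in Tg1 and Tg3 against WT, 162 in Tg2 against Tg1 and 108 in Tg1 against Tg3. Without single libraries the counts ranged from 0 to 25 in WT, 16 to 83 in Tg1 and 0 to 1880 in Tg2 against NC, 0 to 854 in Tg1, 0 to 2421 in Tg2 and 0 to 1321 in Tg3 against WT, 0 to 118 in Tg2 against Tg1 and 3 to 113 in Tg1 against Tg3. The highest count against WT was each time without WT replicate 2. For the gene lists, 169 alternatives moved the count of called members by over 1.5 times and 150 did not. Interferon-stimulated genes in Tg2 against NC went from 2 calls to 5 with DESeq2, 17 with only the 2 plasmids and 19 with the block. At this depth CALCRL, RAMP2, RAMP3, EDNRA and MME were below the filter on low counts. With no filter MME was called in Tg2 against NC and the others were not.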

Other observations

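Several markers of the differentiated proximal tubule were called lower in Tg2 than in NC. Of 20 renal epithelial markers tested, 6 were called lower and 1 higher, with a median log2 fold change of -0.18, beside 3.7% of all genes called lower and 4.73% higher. Of the 20, 13 were not called and 7 had positive log2 fold changes, and their summed level was 5181 ± 36.1 CPM in NC and 5263 ± 137 CPM in Tg2. Without NC replicate 3 or Tg2 replicate 2, 0 genes of the whole table were called in this comparison. The phosphate transporter SLC34A1 had 67.4 ± 3.10 CPM in NC and 49.0 ± 6.08 CPM in Tg2 (SD, n = 3 each), a log2 fold change of -0.46 (SE 0.10, adjusted p = 0.0210 from edgeR). The endocytic receptors LRP2 and CUBN fell by 0.35 and 0.33, the brush-border genes VIL1 and ANPEP by 0.34 and 0.29 and the glucose transporter SLC5A2 by 0.32 on the log2 scale. CDH1, the epithelial cadherin, rose by 0.30 (adjusted p = 0.0286 from edgeR). In WT, Tg1 and Tg3 against NC 0 of the 20 were called by edgeR, with 2, 6 and 10 at an unadjusted p-value under 0.05. Over all 11553 genes, edgeR called 0, 138 and 0 there, with 524, 2304 and 2089 at an unadjusted p-value under 0.05. These markers had been listed to check the identity of the cells, and those named here were chosen after their values were seen.

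Of the markers of other cell types, the endothelial genes FLT1 and EMCN had log2 fold changes of 0.43 and 0.90 in Tg2 against NC (adjusted p = 0.0916 and 0.0565 from edgeR), at mean levels of 5.33 and 2.52 CPM. Of 9 fibroblast and smooth muscle markers matched, COL1A2 alone passed the filter, at a mean of 922 CPM, and PDGFRA and PDGFRB had 6 and 5 counts in all. Of 8 leukocyte markers 4 passed the filter, with CD3E at 20.5 CPM, and the pan-leukocyte gene PTPRC had 6 counts in all. CD68, another leukocyte marker, was called higher in Tg2 against WT, beside 5.92% of all genes called. Of 8 collecting duct and loop of Henle markers matched, 5 were tested. Among them SLC12A1 was called lower in Tg2 against NC, beside 3.7% of all genes, and also lower in Tg2 against WT. Without WT replicate 3, 0 genes of the whole table were called in Tg2 against WT. CD68 and SLC12A1 were named after their values were seen.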
